A study of Ovis aries with 20 samples.

Results

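Late gestation was set against early gestation in the trachea of sheep with cystic fibrosis (CF). The comparison held 8 of the 20 RNA sequencing libraries of the series: 4 early libraries, a pair each from days 65 and 80, and 4 late libraries, a pair each from day 120 and from day 147, the day of birth. They were chosen by genotype and age alone, and no expression value entered the choice. The pair of CF libraries from day 100 is shown between the sides and entered no test. The same 4 ages in normal sheep (WT, called healthy donors in the labels) gave 8 further libraries, against which the change in CF was compared. The labels call the CF animals CF donors and name neither the CFTR allele nor how the animals were made. The RNA was total RNA of frozen tissue described as tracheal epithelial. The 2 day 147 libraries carry 1 sample identifier, the 2 day 65 identifiers share a stem, as do the 2 day 80 identifiers, and nothing says whether libraries of a shared identifier or stem came from separate animals. The p-values therefore measure the spread between these libraries, which may in part be technical. Each side pools 2 ages, so that spread also holds the difference between the ages of a side. A gene that did not pass is therefore not shown to be unchanged. CF day 100 replicate 2 carries the identifier of WT day 65 replicate 2, and it entered no fit, whereas that WT library is 1 of the 16 behind each WT value. Without it, too, edgeR called no difference between CF and WT.

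Cystic fibrosis follows from loss of CFTR, an anion channel of epithelia that carries chloride and bicarbonate. The tracheal lining of a sheep fetus starts as a proliferating epithelium on loose mesenchyme and differentiates before birth into basal, multiciliated and secretory cells, while glands bud into the wall. Submucosal glands and secretory cells make mucins, antibacterial proteins and the receptor that carries antibodies to the surface, and multiciliated cells move the resulting layer with motile cilia. Fetal growth programs, such as insulin-like growth factor (IGF) signalling and its RNA-binding proteins, and the Wnt and Hedgehog pathways by which mesenchyme and epithelium signal to each other, are known for high activity early in organ formation.

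Total counts ran from 48957666 to 76983471 per CF library. In the CF libraries 72.7% to 78.3% of the counts from 1 to 20 were even, whereas counts of 1000 or more were even in 50.1% to 52.2% of cases, and why was not tested. The labelled epithelium was present in all 10 libraries, with the 45 epithelial genes summing to 2271 CPM, the library-size-scaled count, in day 80 replicate 1 and to between 6050.4 and 8142 CPM in the others. Genes of matrix, cartilage and smooth muscle were also present, so the tissue was not epithelium alone. In such bulk tissue fewer cells of a type and less RNA per cell cannot be told apart. A pair of early libraries stood apart. Day 80 replicate 1 held skeletal muscle genes summing to 50576 CPM against 61.6 to 112.5 CPM in the other CF libraries, and day 65 replicate 2 held liver genes summing to 23502 CPM against 278 to 426 CPM, with red cell genes at 1189 CPM. Day 120 replicate 2 may have held a trace of the same kind. AHSG, a plasma protein of liver, stood there at 34.5 CPM against 5.35 CPM in its partner and 5528 CPM in day 65 replicate 2. That gene was chosen after its values were seen. The summed liver genes stood at 414 CPM in day 120 replicate 2 against 426 CPM in its partner. Their list score, defined below, was 0.59 against -0.27. Of the marker lists of neighbouring tissues, 1 of 30 tested skeletal muscle genes fell and 1 of 18 liver genes rose from early to late. Their medians were -6.47 and -4.37 on the log2 scale, against -0.02 over all tested genes. Thyroid (0 of 10 higher, 1 lower), thymus (1 of 12 higher, 1 lower), oesophagus (1 of 13 higher, 1 lower), red cell (0 of 14 in either direction) and lung alveolar genes (1 of 15 higher, 2 lower) made up the rest. These counts stand beside 5.05% higher and 4.91% lower among all tested genes.

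CFTR itself was detected at every age. Its levels were 16.9 and 12.1 CPM at day 65, 4.25 and 8.61 at day 80, 20.4 and 17.9 at day 100, 14.7 and 31.2 at day 120 and 38.2 and 27.5 at day 147. The 2 lowest libraries were both from day 80, and day 120 replicate 1 lay below day 65 replicate 1, so the sides overlapped. The log2 fold change, late against early, was 1.41 ± 0.43 (SE). It did not pass the threshold of 0.05 on the adjusted p (adjusted p = 0.073). Under the alternatives listed at the end CFTR passed in 3 fits, 1 of which left out a single library (adjusted p = 0.041). The deposited table places CFTR on chromosome 4, start 50644000 and end 50864925, without naming a build. Counts summed over all exons could miss a short frameshift, and the genotype labels were therefore not checked by them.

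Of 18243 genes tested, 1818 (9.97%) passed at an adjusted p under 0.05 (edgeR quasi-likelihood F-test, Benjamini-Hochberg), 922 higher late (5.05%) and 896 lower (4.91%). The counts of each list below are to be read beside these shares of all tested genes. Without adjustment 5090 genes (27.9%) had a p under 0.05. The median log2 fold change was 1.63 among the genes that rose and -1.5 among those that fell, against -0.02 over all tested genes. More than 2-fold changes were found for 787 of the genes that rose and 700 of those that fell. Among all genes, 1784 (9.78%) had every late library above every early library and 1891 (10.4%) had every late library below. Of the genes that passed, 901 of 922 and 882 of 896 showed such separation.

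The number of genes that passed leaned on how the libraries were counted. With the day 147 pair summed to 1 sample 522 genes passed, and with all libraries of a shared identifier stem summed, which leaves 2 early against 3 late, none did, with 3343 at an unadjusted p under 0.05. Without the 2 libraries that held muscle or liver genes 113 passed. Leaving out day 65 replicate 1, day 65 replicate 2, day 120 replicate 2, day 147 replicate 1 or day 147 replicate 2 left 569, 570, 1030, 539 and 360 genes. All 1818 genes kept their sign in each of these fits in which they were tested. They were chosen with the same libraries, and in 901 of 922 and 882 of 896 the sides did not overlap. Leaving out or summing libraries could therefore hardly turn a sign, so the kept signs are no independent evidence.

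Among the 15 largest increases, PIGR, CLCA1 and GP2 are on the secretory list, ZG16B and TCN1 on the gland list and PLIN1, CIDEC, FABP4, LPL and DGAT2 on the fat cell list. PIGR, which encodes the receptor that carries dimeric IgA and IgM across the epithelium, had the largest rise among the genes ranked, those with a symbol, a mean log2 CPM of at least 1 and no overlap between the sides. Its levels were 1.05 and 0.567 CPM at day 65, 2.47 and 3.81 at day 80, 47.1 and 23.3 at day 100, 526 and 693 at day 120 and 1366 and 1123 at day 147. Each age lay above the age before it in both libraries, and the log2 fold change was 8.88 ± 0.79 (SE, adjusted p = 0.0052). CLCA1, a secreted protein of goblet cells, stood at 6.12, 2.97, 4.19 and 4.07 CPM in the early libraries, 8.30 and 9.95 CPM at day 100 and 160.1, 132, 812 and 716 CPM in the late ones. Most of its change came after day 100, and the log2 fold change was 6.71 ± 0.75 (adjusted p = 0.0060). ITLN, an intelectin that binds microbial sugars, stood at 3.30, 1.08, 6.27 and 12.8 CPM early, 61.2 and 80.5 CPM at day 100 and 1249.5, 535, 420.3 and 421 CPM late. It was highest at day 120 replicate 1 and its log2 fold change was 6.81 ± 0.87 (adjusted p = 0.0079).

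GP2, a glycoprotein of secretory granules and of antigen-sampling epithelium, stood at 0.320, 0.117, 0.709 and 2.03 CPM early, 11.1 and 6.16 CPM at day 100 and 18.5, 41.4, 169 and 76 CPM late, a log2 fold change of 6.60 ± 1.06 (adjusted p = 0.013). VNN2, a pantetheinase, stood at 2.59, 1.53, 2.06 and 2.41 CPM early, 3.81 and 3.19 CPM at day 100 and 62.1, 89.1, 245 and 225 CPM late. Day 100 was still close to the early libraries, and day 147 was above day 120, with a log2 fold change of 6.17 ± 0.54 (adjusted p = 0.0052). ZG16B, a secreted lectin of glands, went from between 0.160 and 1.37 CPM to between 7.86 and 35.8 CPM (4.99 ± 0.80, adjusted p = 0.013). SLC5A8, a sodium-coupled carrier of short-chain acids and iodide, went from between 0.183 and 2.47 CPM to between 11.9 and 41.3 CPM (4.89 ± 0.82, adjusted p = 0.014), and its day 100 level, 19.6 and 10.8 CPM, was already within the late range or near it. ADGRG7, an adhesion receptor of epithelia, went from between 0.717 and 1.67 CPM through 11 and 8.07 CPM at day 100 to between 12.9 and 34.3 CPM (4.30 ± 0.45, adjusted p = 0.0055). LIF, a cytokine of the interleukin 6 family, was higher at birth than at day 120 in every library, at 57.4 and 34.5 CPM against 2.15 and 10.3 CPM. Its early libraries held between 0.803 and 2.12 CPM (log2 fold change 4.17 ± 0.93, adjusted p = 0.030). The other 6 of the 15 largest increases were TCN1, described with the gland genes, and FABP4, PLIN1, CIDEC, DGAT2 and LPL, described with the fat cell genes.

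**Figure D1:**
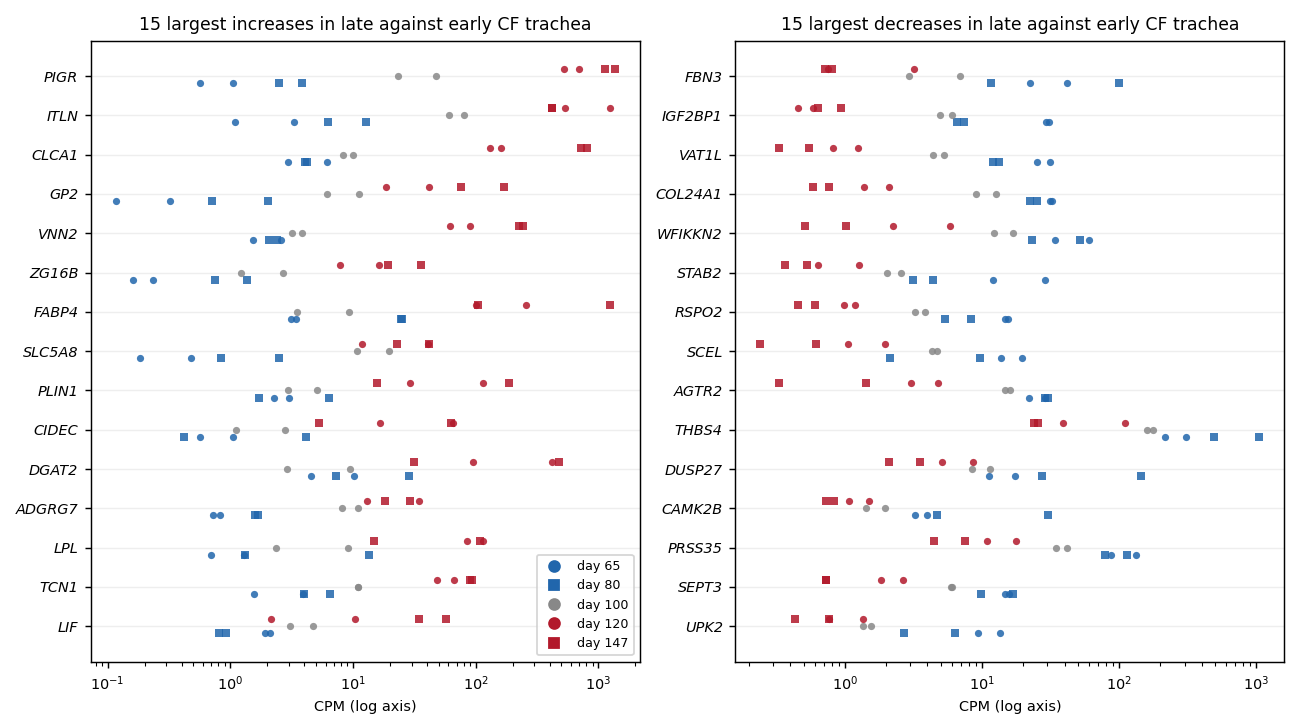
Each row is 1 gene and each point 1 CF library, placed by its level in CPM on a log axis, with the 15 largest increases on the left and the 15 largest decreases on the right. Early libraries are blue, day 100 grey and late libraries red, with circles for days 65, 100 and 120 and squares for days 80 and 147, and no blue point of a gene overlaps its red points because the genes were ranked among those without overlap. For PIGR the 4 late libraries sit between 526 and 1366 CPM and the 4 early ones between 0.567 and 3.81 CPM.

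Of 34 tested genes of secretory and goblet cells 17 rose and 1 fell, against 5.05% and 4.91% of all genes. The median log2 fold change was 1.65 against -0.02. A list score was computed per library by centring each member's log2 CPM on its mean over the 10 CF libraries and averaging. It was -0.96, -0.76, -1.83 and -0.81 in the early libraries, -0.03 and -0.26 at day 100 and 0.61, 0.79, 1.70 and 1.55 late. From day 80 on each age lay above the age before it without overlap, and the lowest score was that of day 80 replicate 1, the library low in epithelial genes. MUC13, a membrane mucin, reached its late level by day 100, with 81.8, 74.6, 80.0 and 111 CPM early, 549 and 377 CPM at day 100 and 369, 677, 404 and 319 CPM late (2.34 ± 0.28, adjusted p = 0.0069). GALNT6, which adds the first sugar to mucins, stood at 9.97, 7.18, 5.76 and 11.6 CPM early, 32.5 and 25.8 CPM at day 100 and 44.8, 45.7, 79.6 and 73 CPM late (2.81 ± 0.30, adjusted p = 0.0055). SPDEF, the transcription factor of goblet cell fate, rose by 2.55 ± 0.52 (adjusted p = 0.024), and AGR2, a protein disulfide isomerase needed for mucin folding, by 2.04 ± 0.30 (adjusted p = 0.010). These 2, and SCGB3A2 below, were singled out after their values were seen.

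The secretoglobins SCGB1A1 and SCGB3A2, small secreted proteins of club cells, both rose. SCGB1A1, the best known club cell marker, stood at 0.0581, 0, 0 and 0.241 CPM early, 0.155 and 0.214 CPM at day 100 and 1.47, 0.424, 1.98 and 3.53 CPM late. With 16 counts in the 4 early libraries together its log2 fold change, 4.61 ± 1.16 (adjusted p = 0.041), is imprecise. SCGB3A2 went from 1612 ± 1222 CPM early (mean ± SD, n = 4) to 21007 ± 8439 CPM late (3.70 ± 0.61, adjusted p = 0.013). The gel-forming mucins did not pass. MUC5B, the main mucin of glands, stood at 0.683, 1.10, 0 and 0.241 CPM early and 0.754, 7.78, 19.8 and 2.57 CPM late (3.91 ± 1.26, adjusted p = 0.083), so that day 147 replicate 1 held more than the other 3 late libraries together and day 120 replicate 1 was within the early range. MUC5AC, the mucin of surface goblet cells, stood at 1.02, 1.55, 0 and 0.161 CPM early and 0.452, 3.05, 3.12 and 0.393 CPM late (1.35 ± 1.18, adjusted p = 0.51). RIMS1, listed with the secretory markers but best known for vesicle release at synapses, was the member that fell, from between 1.44 and 5.33 CPM to between 0.726 and 1.17 CPM (-2.01 ± 0.42, adjusted p = 0.026). When the day 147 pair was summed 11 secretory genes rose, and without the 2 libraries with other tissue 3 did. Over all genes these fits called 522 and 113.

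Of 23 tested genes of submucosal glands and antibacterial secretion 10 rose and none fell, with a median log2 fold change of 1.31. LTF, the iron-binding antibacterial protein lactoferrin, stood at 2.11 and 3.83 CPM at day 65, 12.9 and 7.95 at day 80, 43.3 and 21.4 at day 100, 130.3 and 126 at day 120 and 87.3 and 134 at day 147. Every late library was above day 100 and every day 100 library above the early ones, and the log2 fold change was 4.16 ± 0.55 (adjusted p = 0.0087). LPO, the lactoperoxidase that turns thiocyanate into an antibacterial oxidant, stood at 235 and 182 CPM at day 65, 102 and 567 at day 80, 738 and 762 at day 100, 1881 and 1882 at day 120 and 2698 and 2595 at day 147. The lowest library was again day 80 replicate 1, and the log2 fold change was 3.06 ± 0.52 (adjusted p = 0.014).

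TCN1, which encodes a cobalamin-binding protein of secretions, stood at 3.92, 1.55, 3.98 and 6.52 CPM early, 11 and 11 CPM at day 100 and 66.1, 48.4, 90.2 and 94 CPM late (4.22 ± 0.45, adjusted p = 0.0055). AZGP1, a zinc-binding glycoprotein of serous glands, went from between 8.57 and 19 CPM through 42.5 and 32.2 CPM to between 70.9 and 153 CPM (3.0 ± 0.35, adjusted p = 0.0066). Both kept their call without the 2 libraries with other tissue. BPIFB1, a secreted protein of the lipopolysaccharide-binding family, stood at 8.56, 10.7, 5.63 and 14.2 CPM early and 29.7, 37.1, 91.2 and 104 CPM late (2.75 ± 0.48, adjusted p = 0.015), with birth above day 120. BPIFA1, its relative SPLUNC1, which regulates the epithelial sodium channel, did not pass, at 0.102, 0.433, 0.892 and 1.57 CPM early, 3.45 and 0.702 CPM at day 100 and 0.980, 1.45, 3.28 and 2.61 CPM late (1.48 ± 0.74, adjusted p = 0.24). LYZ, the lysozyme gene of that symbol, stood between 0.650 and 1.5 CPM early and between 0.547 and 1.57 CPM late (log2 fold change 0.02 ± 0.45, adjusted p = 0.98). Of the 10 gland genes that rose, 7 took their largest step between days 100 and 120 and 3 between days 80 and 100. Among all tested genes the shares for these steps were 14.5% and 50.6%. With the birth libraries summed 6 gland genes passed, and without the 2 libraries with other tissue 3 did.

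**Figure D2:**
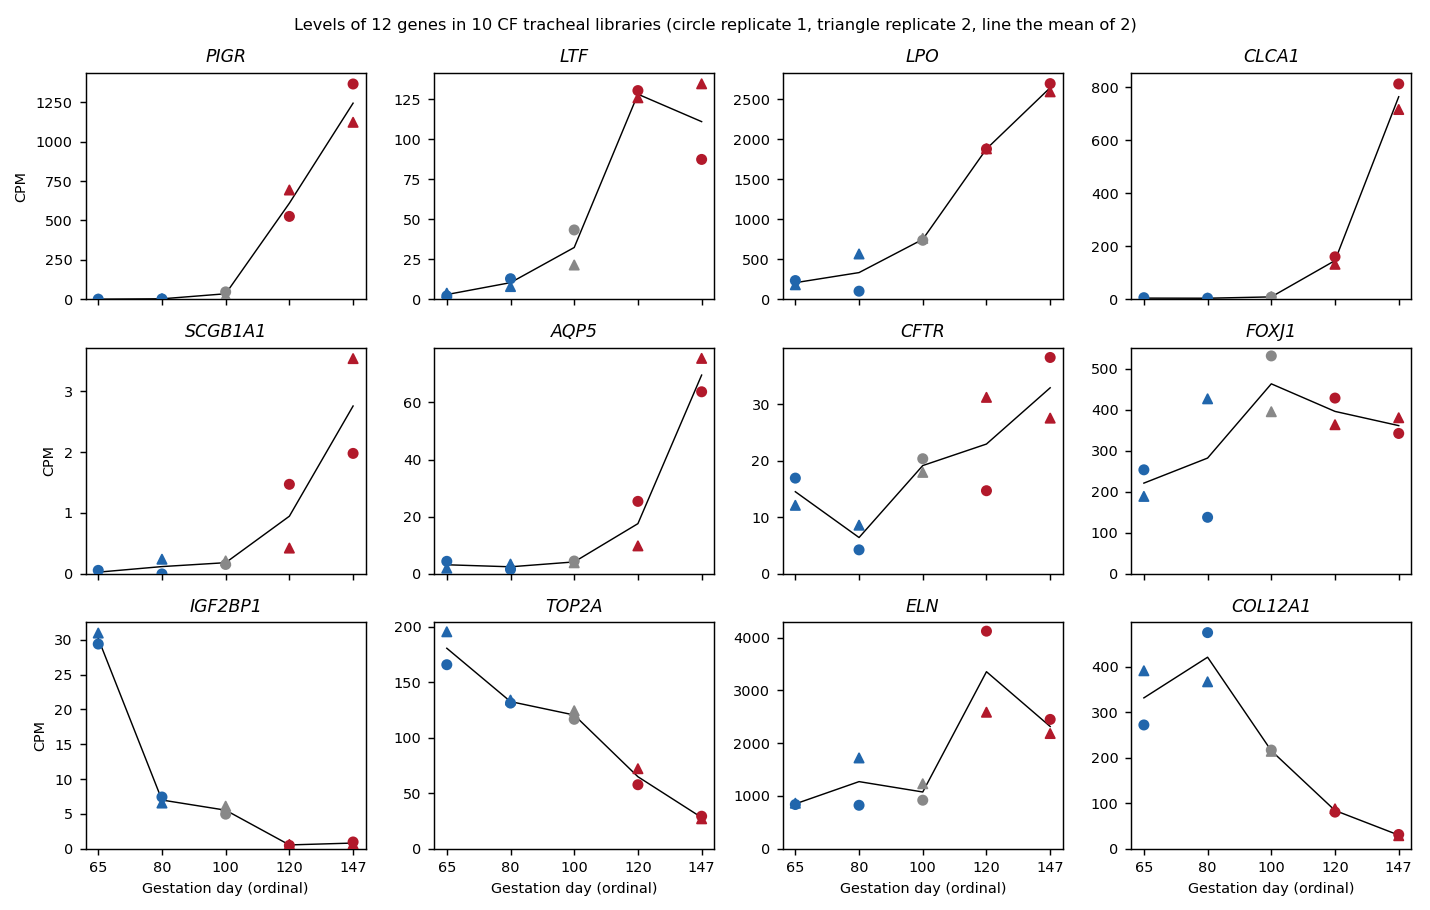
Levels of 12 genes in CPM on linear axes against gestation day, spaced by order, with a circle for replicate 1, a triangle for replicate 2 and a line through the mean of the pair, early libraries blue, day 100 grey and late libraries red. LTF and LPO climb stepwise, CLCA1 and AQP5 climb mostly after day 100, IGF2BP1 and TOP2A decline, and CFTR and FOXJ1 have overlapping early and late libraries.

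Of 44 tested genes of ion and water transport 6 rose and none fell, with a median of 0.86, and aquaporins and a bicarbonate carrier were among the 6. AQP5, the water channel of gland serous cells and of the apical surface, stood at 4.40 and 2.00 CPM at day 65, 1.56 and 3.43 at day 80, 4.51 and 3.89 at day 100, 25.4 and 9.80 at day 120 and 63.7 and 75.4 at day 147. Birth was above day 120 in every library and day 100 was within or just above the early range, and the log2 fold change was 3.93 ± 0.67 (adjusted p = 0.014). AQP4, a basolateral water channel of airway epithelium, stood at 239.6, 244, 82.5 and 181 CPM early, 631 and 524 CPM at day 100 and 337, 934, 1193 and 754 CPM late (2.11 ± 0.46, adjusted p = 0.028). SLC4A4, the basolateral sodium bicarbonate cotransporter that supplies bicarbonate for secretion, went from between 11.9 and 15.2 CPM to between 23.5 and 44.6 CPM (1.37 ± 0.23, adjusted p = 0.014), and SLC6A14, an apical amino acid carrier, from between 2.55 and 4.13 CPM to between 9.80 and 28 CPM (2.15 ± 0.38, adjusted p = 0.015). The subunits of the epithelial sodium channel ENaC did not pass. SCNN1A stood at 7.98, 6.10, 1.44 and 4.78 CPM early and 5.20, 11.1, 29.3 and 18.8 CPM late (1.66 ± 0.62, adjusted p = 0.12). The values of SCNN1B and SCNN1G were 0.63 ± 0.32 (adjusted p = 0.24) and 1.29 ± 0.69 (adjusted p = 0.27). With the day 147 pair summed 3 transport genes passed, and without the 2 libraries with other tissue none did.

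Ionocytes, rare cells with much CFTR and proton pump, were traced by 12 tested genes, all with a positive log2 fold change and a median of 1.30. ATP6V1B1, a subunit of the vacuolar proton pump, rose from between 18.9 and 49.5 CPM through 104 and 71.3 CPM to between 125 and 192 CPM (2.49 ± 0.35, adjusted p = 0.0097). HEPACAM2 rose from between 0.522 and 1.02 CPM to between 2.49 and 14.1 CPM, with 14.1 and 12.5 CPM at birth (3.51 ± 0.66, adjusted p = 0.019). FOXI1, the transcription factor that defines these cells, stood at 0.465, 0.467, 0 and 0 CPM early and 0.415, 0.391, 1.85 and 1.31 CPM late and did not pass (2.04 ± 1.17, adjusted p = 0.30).

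Of 78 tested genes of the motile cilium 26 rose and none fell, 77 had a positive log2 fold change, and the median was 1.06. All 26 that rose took their largest step between days 80 and 100, which was the largest step of 50.6% of all tested genes, and their median level at day 100 was 103% of the way from the early to the late mean on the log2 scale. DNAI1, an intermediate chain of the outer dynein arm, stood at 17.4 and 14.3 CPM at day 65, 9.06 and 24.9 at day 80, 50.5 and 37.4 at day 100, 38.2 and 46.7 at day 120 and 46.8 and 39.3 at day 147 (1.38 ± 0.28, adjusted p = 0.024). Its day 100 libraries lay just above and just below the late range. CCDC39, a ruler of the cilium's repeats that sets where inner arms dock, stood at 72.6, 52, 29.3 and 84.8 CPM early, 175 and 152 CPM at day 100 and 124, 184, 179 and 161 CPM late (1.44 ± 0.31, adjusted p = 0.028). PIFO and KIF9 rose by 1.27 ± 0.25 and 1.14 ± 0.24 (adjusted p = 0.022 and 0.026). DNAH5, the heavy chain most often mutated in primary ciliary dyskinesia, had a value of 1.41 ± 0.45 and did not pass (adjusted p = 0.082).

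The cilium score was lowest in the library with the lowest epithelial score. What epithelial content added to the cilium result was not tested. The list score was -0.43, -0.76, -1.59 and -0.12 in the early libraries and 0.19, 0.66, 0.56 and 0.41 in the late ones, so the lowest was day 80 replicate 1, whose epithelial score was also the lowest, at -1.57. Without that library and day 65 replicate 2 none of the cilium genes passed and the median was 0.70, with the day 147 pair summed none did, and with library size in place of TMM scaling 5 did. Over all genes these fits called 113, 522 and 1567, against 1818 in the main fit. Of 14 tested regulators of multiciliated fate ULK4 alone rose (1.24 ± 0.29, adjusted p = 0.034), and the median was -0.33. FOXJ1, which turns on the motile cilium program, stood at 254, 189, 138 and 427 CPM early, 531 and 395 CPM at day 100 and 429, 364, 342 and 381 CPM late (0.59 ± 0.32, adjusted p = 0.28).

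Among general epithelial and basal cell genes few passed. Of 45 epithelial genes ELF3 alone did, an epithelial transcription factor that stood at 175, 147, 112 and 244 CPM early and 443, 427, 544 and 539 CPM late (1.52 ± 0.26, adjusted p = 0.014). The list's median was 0.46, and EPCAM, the epithelial adhesion molecule, had a value of 0.50 ± 0.33 (adjusted p = 0.37). Of 22 basal cell genes 1 rose and 2 fell, against 5.05% and 4.91% of all tested genes, with a median of -0.09. KRT5 and TP63, the keratin and the transcription factor that mark basal cells, had values of 0.85 ± 0.29 (adjusted p = 0.097) and 1.03 ± 0.47 (adjusted p = 0.19). NGFR, a neurotrophin receptor of basal and of nerve cells, fell from between 15.8 and 37.8 CPM to between 2.36 and 9.03 CPM (-2.34 ± 0.48, adjusted p = 0.024). SNAI2, a repressor of epithelial genes that mesenchyme also expresses, fell by 0.73 on the log2 scale (adjusted p = 0.040), and DLK2, a Notch pathway ligand of basal cells, rose (1.20 ± 0.30, adjusted p = 0.041).

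Neuroendocrine genes were called in both directions. INSM1, a transcription factor of neuroendocrine differentiation, rose from 1.31, 0.900, 0.778 and 0.722 CPM early to 1.81, 1.86, 3.19 and 3.56 CPM late (1.48 ± 0.37, adjusted p = 0.040). GRP, the bombesin-like peptide of fetal neuroendocrine cells, fell from between 0.457 and 0.963 CPM to between 0.0302 and 0.151 CPM (-3.25 ± 0.60, adjusted p = 0.017). SCG2, a granin, and UCHL1, a ubiquitin hydrolase that neurons also carry, fell too, UCHL1 from between 62.8 and 106 CPM to between 3.08 and 30.0 CPM (-2.75 ± 0.71, adjusted p = 0.044). In all, 2 of 18 tested rose and 3 fell, against 5.05% and 4.91% of all tested genes. None of the neuroendocrine genes passed with the day 147 pair summed or without the 2 libraries with other tissue. INSM1 and UCHL1 each passed in 1 of the 8 fits that left out 1 library.

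Of 31 tested genes of nerves and their Schwann cells 7 fell and 1 rose, with a median of -0.77. GAP43, a protein of growing axons, stood at 6.39 and 11.6 CPM at day 65, 3.02 and 7.51 at day 80, 1.96 and 1.4 at day 100, 0.980 and 0.587 at day 120 and 0.508 and 0.181 at day 147 (-3.66 ± 0.59, adjusted p = 0.013). NEFL, the light neurofilament, went from between 2.74 and 10.3 CPM to between 0.290 and 1.36 CPM (-3.16 ± 0.61, adjusted p = 0.020), and CHRNA3, the nicotinic receptor subunit of autonomic ganglia, from between 1.53 and 4.22 CPM to between 0.332 and 0.581 CPM (-2.51 ± 0.43, adjusted p = 0.014). GFRA3, the artemin receptor of sensory nerves, rose (1.20 ± 0.30, adjusted p = 0.041). Without the 2 libraries with other tissue none of the nerve genes passed.

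Of 36 tested genes induced by interferon 14 rose and none fell, with a median of 0.92. All 14 took their largest step between days 80 and 100, the largest step of 50.6% of all tested genes. Their median day 100 level was 150% of the way from early to late, above the late mean. MX1, a GTPase that blocks viral replication, stood at 14.1 and 12.8 CPM at day 65, 16.6 and 21.6 at day 80, 204 and 90.1 at day 100, 51.7 and 59.5 at day 120 and 71.6 and 86.5 at day 147. The highest library was day 100 replicate 1, and the log2 fold change was 2.04 ± 0.23 (adjusted p = 0.0060). OAS1, which makes the activator of RNase L, stood at 8.69, 15.9, 12.4 and 15.2 CPM early, 194 and 90.2 CPM at day 100 and 41.8, 51.2, 71.9 and 87.4 CPM late (2.27 ± 0.29, adjusted p = 0.0079), and MX2 at 5.26, 4.28, 3.59 and 7.12 CPM, 77 and 36.6 CPM and 26.6, 53.2, 58.3 and 45.6 CPM (3.18 ± 0.32, adjusted p = 0.0052). Without the 2 libraries with other tissue the calls of MX1 and MX2 were kept, with 2 interferon genes passing in all, and with the day 147 pair summed 3 did.

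Of 19 tested antigen presentation genes 6 rose and none fell, with a median of 0.50. CD74, the invariant chain that escorts class II molecules, stood at 33.7 and 35.3 CPM at day 65, 114 and 123 at day 80, 415 and 278 at day 100, 453 and 467 at day 120 and 654 and 617 at day 147 (2.83 ± 0.48, adjusted p = 0.014). As with PIGR, each age lay above the age before it in both libraries. CIITA, the activator of class II transcription, went from between 1.83 and 5.98 CPM to between 12.6 and 19 CPM (2.33 ± 0.41, adjusted p = 0.016), and DQA, a class II alpha chain, from between 2.34 and 8.74 CPM to between 49 and 83.9 CPM (3.60 ± 0.49, adjusted p = 0.0090). TAP1, the peptide pump of the class I pathway, rose by 1.01 ± 0.17 (adjusted p = 0.013). DQA alone of these genes passed without the 2 libraries with other tissue. DQA, MX1 and MX2, like CLCA1, ITLN and UGT2A1 elsewhere in the text, belong to families of similar genes, and the treatment of reads that match several of them is not known.

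The complement genes that rose held components as well as proteins that restrain complement. C3, the central component, stood at 104 and 134 CPM at day 65, 192 and 237 at day 80, 1002 and 670.2 at day 100, 1124 and 1119 at day 120 and 487 and 559 at day 147 (2.30 ± 0.39, adjusted p = 0.014). It was higher at days 100 and 120 than at birth. CFB, the factor B of the alternative pathway, stood at 36.9, 46.7, 28.9 and 34.8 CPM early and 117, 76.3, 118 and 117 CPM late (1.54 ± 0.21, adjusted p = 0.0090). CD55 and CD46, which protect a cell's own surface, rose by 1.78 ± 0.19 and 1.38 ± 0.22 (adjusted p = 0.0055 and 0.013). C9, listed also with the liver markers, rose from between 1.76 and 12.7 CPM to between 15.5 and 45.3 CPM (2.62 ± 0.67, adjusted p = 0.044). Its highest early count, 764, was in day 65 replicate 2, the library with liver genes. Late counts were 824 and 1651 in day 120 replicates 1 and 2 and 2497 and 2439 at birth. What liver tissue added to the values of C9 was not tested. Of 27 tested 7 rose and none fell, and 5 of the complement genes passed without the 2 libraries with other tissue.

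Most leukocyte genes did not pass, and many of those that did had few counts. Of 35 tested genes of macrophages, dendritic and mast cells 4 rose and none fell, with a median of -0.04. CD207, the langerin of Langerhans cells, had 2 counts in the 4 early libraries together and stood at 0.653 and 0.976 CPM at day 100 and 0.980, 0.620, 0.871 and 0.604 CPM late (adjusted p = 0.0094). CD1E, a lipid-presenting molecule of dendritic cells, rose from between 0.436 and 0.961 CPM to between 2.87 and 3.92 CPM (2.34 ± 0.35, adjusted p = 0.011), with 6.82 CPM in day 100 replicate 2. CD1E is also on the thymus list, where it was the 1 member that rose. What thymus tissue added to its values was not tested. HDC, the histamine-forming enzyme, and S100A9, a calprotectin subunit, rose by 2.94 ± 0.63 and 1.31 ± 0.30 (adjusted p = 0.027 and 0.031). Of 32 tested lymphocyte genes 4 rose and 2 fell, whereas of all tested genes 5.05% rose and 4.91% fell. CD2, an adhesion molecule of T cells, rose from between 0.203 and 0.412 CPM to between 0.717 and 1.83 CPM (2.21 ± 0.45, adjusted p = 0.023), whereas CD79B, a chain of the B cell receptor complex, fell from between 0.350 and 1.44 CPM to between 0.0363 and 0.151 CPM (-3.35 ± 0.66, adjusted p = 0.022). CR2, a complement receptor of B cells, rose to between 0.452 and 1.09 CPM from between 0 and 0.161 CPM (3.62 ± 0.78, adjusted p = 0.027). JCHAIN, which joins antibodies into the polymers that PIGR carries, had a value of -0.84 ± 0.44 (adjusted p = 0.25).

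Of 47 tested antioxidant and xenobiotic genes 8 rose and none fell, with a median of 0.46. GPX2, the epithelial glutathione peroxidase, stood at 7.72, 5.82, 10.5 and 10.7 CPM early, 28.2 and 15.5 CPM at day 100 and 63.9, 42.9, 65.1 and 78.1 CPM late (2.84 ± 0.27, adjusted p = 0.0052). UGT2A1, a glucuronosyltransferase of olfactory and airway epithelium, stood at 91.6, 93.4, 49.8 and 158 CPM early and 401, 618, 832 and 624 CPM late (2.65 ± 0.38, adjusted p = 0.010), and POR, the electron donor of cytochrome P450 enzymes, rose by 1.31 ± 0.23 (adjusted p = 0.015). FMO2, a flavin monooxygenase of lung, had a value of 1.22 ± 0.59 (adjusted p = 0.22), and GPX3 one of 0.46 ± 0.59 (adjusted p = 0.67). Summing the day 147 pair left 4 of these genes higher, and leaving out the 2 libraries with other tissue left 1.

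Of 38 tested genes of secretion and of the unfolded protein response 6 rose and none fell, with a median of 0.32. XBP1, the transcription factor that enlarges the secretory apparatus, stood at 192, 176, 209.6 and 212 CPM early and 322, 355, 276 and 302 CPM late (0.66 ± 0.16, adjusted p = 0.034). CREB3L1 and CREB3L4, related factors of secretory cells, rose by 1.22 ± 0.28 and 2.28 ± 0.47 (adjusted p = 0.032 and 0.024). None of these genes passed with the day 147 pair summed.

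Some hormone and stress genes were highest at birth. Of 28 glucocorticoid-responsive genes 3 rose and none fell, against 5.05% and 4.91% of all tested genes. KLF9, a direct target of the glucocorticoid receptor, stood at 9.12, 5.37, 6.31 and 4.70 CPM early, 10.2 and 11.8 CPM at day 100, 18 and 21.9 CPM at day 120 and 45.2 and 42.7 CPM at birth (2.32 ± 0.37, adjusted p = 0.013). GLUL, glutamine synthetase, rose by 1.15 ± 0.25 (adjusted p = 0.029), whereas FKBP5, another target, had a value of 0.19 ± 0.39 (adjusted p = 0.80). The enzymes that activate and inactivate cortisol, HSD11B1 and HSD11B2, had values of 0.43 ± 0.70 and 0.46 ± 0.73 (adjusted p = 0.74 and 0.74). Of this list 1 gene passed with the day 147 pair summed and none without the 2 libraries with other tissue. Of 25 immediate early genes, which respond to stimulation within minutes, 2 rose, again against 5.05% of all tested genes. FOSB, an AP-1 subunit, stood at 0.930, 1.27, 0.366 and 0.341 CPM early, 0.452 and 5.61 CPM at day 120 and 61.1 and 31.4 CPM at birth (5.07 ± 1.29, adjusted p = 0.043). The list score was 1.96 and 1.74 at birth and below 0 in the other 8 libraries. Both birth libraries carry 1 identifier, and with them summed neither gene passed.

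Of 37 hypoxia genes 4 rose, ADM, which encodes the vasodilator adrenomedullin, from between 7.57 and 20.6 CPM to between 27.5 and 73.2 CPM (1.78 ± 0.45, adjusted p = 0.041) and EGLN3, an oxygen-sensing hydroxylase, by 1.38 ± 0.36 (adjusted p = 0.047). Neither was above its early range at day 100, where ADM stood at 7.11 and 10.3 CPM and EGLN3 at 29 and 40.0 CPM. Of 22 heat shock genes 2 rose, HSPH1 and DNAJA4, and HSPH1 was highest in day 120 replicate 2, at 955 CPM against 296, 376 and 371 CPM in the other late libraries. Among all tested genes the share that rose was 5.05%. None of the hypoxia or heat shock genes passed with the day 147 pair summed or without the 2 libraries with other tissue.

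Fat cell genes had the highest median log2 fold change of the lists, 3.06. Of 25 tested 12 rose, none fell, and all had a positive value. All 12 took their largest step between days 100 and 120, the largest step of 14.5% of all tested genes. Their median day 100 level was 7.91% of the way from early to late. PLIN1, which coats lipid droplets, stood at 2.98 and 2.28 CPM at day 65, 6.43 and 1.73 at day 80, 2.95 and 5.08 at day 100, 114 and 29.2 at day 120 and 15.7 and 187 at day 147 (4.69 ± 0.86, adjusted p = 0.018). DGAT2, which makes triglyceride, stood at 4.56, 10.2, 28.5 and 7.32 CPM early and 418, 94.7, 31.5 and 479 CPM late (4.33 ± 0.97, adjusted p = 0.030). FABP4, a fatty acid carrier, stood at 3.09, 3.42, 24.5 and 25.2 CPM early and 257, 101, 105 and 1244 CPM late (4.92 ± 1.17, adjusted p = 0.035).

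UCP1, the heat-producing uncoupler of brown fat, had 7 counts in all early libraries together and stood at 3.58, 0.978, 10.2 and 159.9 CPM late (adjusted p = 0.026). CIDEC, which fuses lipid droplets, and LPL, the lipase that frees fatty acids from lipoproteins, stood at 65.3, 16.5, 5.28 and 62.9 CPM and 115, 84.7, 14.9 and 109 CPM late (4.61 ± 1.04 and 4.27 ± 1.10, adjusted p = 0.031 and 0.045). Day 147 replicate 1 was thus the lowest late library for PLIN1, DGAT2, CIDEC and LPL. The list score was 2.70, 1.46, 0.38 and 3.05 in the late libraries, so that the 2 birth libraries, which carry 1 identifier, were the lowest and the highest. Day 120 replicate 1 and day 147 replicate 2, the 2 highest, were also the 2 late libraries with the higher scores for oxidative phosphorylation, 0.64 and 0.79 against -0.37 and -0.40. In these 2 libraries longer genes were relatively lower, with slopes of log2 CPM on log2 gene length of -0.18 and -0.096 against 0.10 and 0.067 in the other late libraries. Day 80 replicate 1, with a slope of -0.080, had the highest oxidative phosphorylation score, 0.84, and a fat cell score of -0.12. Its partner, day 80 replicate 2, had a slope of -0.113 but scores of 0.089 for oxidative phosphorylation and -1.77 for fat cells. The part of this length bias in the result was not tested. The part of fat adjoining the trachea in the result was not tested. With the birth pair summed 9 fat cell genes passed, and without the 2 libraries with other tissue 1 did.

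Of 84 tested genes of cell division 62 fell and none rose, against 4.91% of all genes lower, and the median log2 fold change was -1.41. TOP2A, the topoisomerase of dividing cells, stood at 166 and 195 CPM at day 65, 131 and 134 at day 80, 117 and 124 at day 100, 57.5 and 72 at day 120 and 29.1 and 26.8 at day 147. Each age lay below the age before it in both libraries, and the log2 fold change was -1.76 ± 0.34 (adjusted p = 0.020). FOXM1, a transcription factor of mitosis, stood at 13.6, 18.5, 13.7 and 10.5 CPM early, 9.49 and 9.30 CPM at day 100 and 4.0, 4.92, 2.59 and 2.69 CPM late (-1.99 ± 0.30, adjusted p = 0.011). CDC6, a licensing factor of replication, went from between 12.8 and 20.4 CPM to between 2.78 and 5.41 CPM (-1.90 ± 0.31, adjusted p = 0.013), and RACGAP1, a regulator of cytokinesis, from between 57.8 and 64.5 CPM to between 16.3 and 29.4 CPM (-1.41 ± 0.23, adjusted p = 0.013). MKI67, the proliferation marker, was uneven among the early libraries, at 84.9, 176, 47.9 and 40.0 CPM, and did not pass (-1.99 ± 0.57, adjusted p = 0.060).

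The largest step of these genes came late. It lay between days 120 and 147 for 48 of the 62, between days 100 and 120 for 12 and between days 65 and 80 for 2. Among all tested genes the shares for these steps were 15.7%, 14.5% and 19.3%. The chromatin list shares some of these genes, and 9 of its 34 tested members fell and none rose, among the 9 LMNB1, a nuclear lamin (-1.43 ± 0.20, adjusted p = 0.0093), UHRF1, which maintains DNA methylation (-1.30 ± 0.28, adjusted p = 0.026), and EZH2, the histone methyltransferase of Polycomb (-1.16 ± 0.21, adjusted p = 0.017). With the 2 birth libraries summed 15 of the cell division genes passed, and without the 2 libraries with other tissue none did, although the median there was -1.36. These fits called 522 and 113 of all genes.

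Of 42 tested genes of fetal growth and its RNA-binding proteins 15 fell and none rose, with a median of -1.53. IGF2BP1, an RNA-binding protein of embryonic tissue that stabilises growth transcripts, stood at 29.4 and 31 CPM at day 65, 7.41 and 6.54 at day 80, 4.94 and 6.09 at day 100, 0.452 and 0.587 at day 120 and 0.943 and 0.634 at day 147. Its log2 fold change of -4.83 ± 0.64 (adjusted p = 0.0088) was the second largest decrease among the ranked genes, and it fell in 2 steps, from day 65 to day 80 and from day 100 to day 120. IGF2BP3, its paralog, fell by 0.97 on the log2 scale (adjusted p = 0.023). LIN28B, the repressor of let-7 microRNAs, was low throughout, at 0.581, 1.75, 0.274 and 0.201 CPM early and 0.0377, 0.0978, 0 and 0 CPM late (-4.29 ± 1.14, adjusted p = 0.048).

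PLAGL1, an imprinted zinc finger factor, stood at 475, 459, 270.4 and 396 CPM early and 124, 147, 89.9 and 77.5 CPM late (-1.87 ± 0.27, adjusted p = 0.010), and GPC3, a glypican that restrains growth, at 461, 638, 497 and 426 CPM and 229.9, 201, 132 and 126 CPM (-1.56 ± 0.26, adjusted p = 0.013). IGFBP2, a binding protein of IGF, fell from between 201 and 274 CPM to between 31.9 and 103 CPM (-2.07 ± 0.36, adjusted p = 0.015). IGF2 itself did not pass, at 203, 391, 311 and 148 CPM early and 73.9, 245, 119 and 56.4 CPM late (-1.10 ± 0.49, adjusted p = 0.19), nor did DLK1 (-1.51 ± 0.78, adjusted p = 0.25), whose highest library was day 80 replicate 1 with its muscle genes, at 3812 CPM. HMGA2, a chromatin protein of embryonic cells, was at most 1.87 CPM (-2.17 ± 0.95, adjusted p = 0.18). Without the 2 libraries with other tissue 2 fetal growth genes passed, IGF2BP1 and PLAGL1.

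Among the signalling pathways between mesenchyme and epithelium, Wnt had the most calls. Of 46 tested Wnt genes 15 fell and none rose, with a median of -0.77. RSPO2, an R-spondin that amplifies Wnt signalling and is needed for tracheal and lung growth, stood at 15.5 and 14.7 CPM at day 65, 5.33 and 8.37 at day 80, 3.25 and 3.84 at day 100, 1.19 and 0.978 at day 120 and 0.454 and 0.604 at day 147 (-3.77 ± 0.48, adjusted p = 0.0079). Its relative RSPO3 stood at 11.9, 11.2, 8.44 and 10.7 CPM early, 4.29 and 4.79 CPM at day 100 and 2.04, 1.53, 2.39 and 1.16 CPM late (-2.57 ± 0.29, adjusted p = 0.0060). Both kept their call without the 2 libraries with other tissue and in every fit that left out 1 library. FZD2, a Wnt receptor, fell from between 51 and 72.5 CPM to between 6.04 and 17.1 CPM (-2.61 ± 0.35, adjusted p = 0.0090), and SFRP1, a secreted antagonist, from between 118 and 271 CPM to between 24.7 and 64.5 CPM (-2.22 ± 0.36, adjusted p = 0.013). With the day 147 pair summed 6 Wnt genes fell, and without the 2 libraries with other tissue RSPO2 and RSPO3 were the 2 that did.

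Hedgehog, FGF and BMP, TGF-beta and Notch genes had fewer calls, to be set against 5.05% higher and 4.91% lower among all tested genes. Of 21 Hedgehog genes 3 fell: SMO, the signal transducer (-1.26 ± 0.19, adjusted p = 0.012), GAS1, a co-receptor (-1.61 ± 0.26, adjusted p = 0.013), and DISP1, which releases the ligand (-1.08 ± 0.24, adjusted p = 0.030). SHH, the epithelial ligand, stood at 2.18, 1.17, 0.435 and 1.55 CPM early and 1.21, 0.913, 1.58 and 0.845 CPM late (-0.23 ± 0.49, adjusted p = 0.80). Of 44 FGF and BMP genes 6 fell and none rose, with a median of -0.82, among them BMP5 (-0.99 ± 0.17, adjusted p = 0.015), FST, the activin antagonist follistatin (-1.20 ± 0.29, adjusted p = 0.037), FGFR1 (-0.82 ± 0.17, adjusted p = 0.024) and FLRT2, an adhesion molecule and partner of FGF receptors (-1.41 ± 0.25, adjusted p = 0.016). Of 29 TGF-beta genes 3 fell, INHBA, an activin chain, the most (-1.65 ± 0.42, adjusted p = 0.044). Of 24 Notch genes 1 rose and 2 fell, among them NOTCH3, the receptor of mural cells (-1.14 ± 0.20, adjusted p = 0.014). Of 62 developmental transcription factors 6 fell and none rose, TBX3 by 1.35 and OSR1, a factor of foregut mesenchyme, by 1.22 on the log2 scale (adjusted p = 0.019 and 0.024). Without the 2 libraries with other tissue none of the Hedgehog, FGF and BMP, TGF-beta, Notch or developmental factor genes passed. Of 22 adhesion receptors of the ADGR family 2 rose and 5 fell. ADGRF1 went from between 3.27 and 7.41 CPM to between 28.1 and 45.4 CPM (2.82 ± 0.28, adjusted p = 0.0052) and ADGRG2 from between 18.3 and 23.1 CPM to between 5.41 and 8.28 CPM (-1.52 ± 0.21, adjusted p = 0.0090).

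Of 61 tested fibroblast and matrix genes 13 fell and 2 rose, with a median of -0.83. COL12A1, a collagen that links fibrils in growing tissue, stood at 272 and 391 CPM at day 65, 475 and 367 at day 80, 217 and 214 at day 100, 80.2 and 87.3 at day 120 and 30.9 and 28.2 at day 147. Birth was below day 120 and day 120 below day 100 in every library, and the log2 fold change was -2.74 ± 0.42 (adjusted p = 0.012). TNC, tenascin C of developing mesenchyme, stood at 248, 255, 192 and 220.4 CPM early, 177 and 175 CPM at day 100 and 79.7, 76.1, 59.7 and 45.2 CPM late (-1.81 ± 0.21, adjusted p = 0.0066), and PDGFRA, the growth factor receptor of fibroblast progenitors, fell by 1.22 on the log2 scale (adjusted p = 0.016). COL1A1, the main fibrillar collagen, did not pass (-0.42 ± 0.44, adjusted p = 0.59), although its birth libraries, at 5236 and 3280.3 CPM, were the lowest. Summing the day 147 pair left 5 matrix genes lower and 1 higher, and leaving out the 2 libraries with other tissue left 1 lower and 1 higher.

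ELN, elastin, rose, with 835, 859, 821 and 1718 CPM early, 917 and 1229 CPM at day 100 and 4124, 2586, 2449 and 2182 CPM late (1.42 ± 0.34, adjusted p = 0.036). PI16, a marker of adventitial fibroblasts, rose as well, from between 27.9 and 59.1 CPM through 141 and 144 CPM to between 119 and 216 CPM (1.99 ± 0.27, adjusted p = 0.0094), and kept its call without the 2 libraries with other tissue. Of 25 tested cartilage genes 1 rose and 2 fell, against 5.05% and 4.91% of all tested genes. SOX9, the factor of chondrocytes and of gland progenitors, rose (0.73 ± 0.17, adjusted p = 0.035), and COL11A1 and COL9A3, minor collagens of young cartilage, fell (-1.80 ± 0.39 and -2.14 ± 0.52, adjusted p = 0.028 and 0.039). COL2A1, the main cartilage collagen, stood at 331, 236, 681 and 390.3 CPM early and 1146, 387, 2073 and 1488 CPM late and did not pass (1.63 ± 0.52, adjusted p = 0.079).

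Of 23 smooth muscle genes ITGA8, an integrin of muscle and myofibroblasts, alone passed, falling from between 16.6 and 35.6 CPM to between 4.96 and 8.74 CPM (-2.01 ± 0.29, adjusted p = 0.010). ACTA2 had a value of -0.21 ± 0.44 (adjusted p = 0.81). Of 33 endothelial genes 1 rose, the water channel AQP1 (1.6 ± 0.36, adjusted p = 0.032), and 2 fell, FLT4, the receptor of lymphatic growth (-1.09 ± 0.22, adjusted p = 0.023), and APLN, the apelin ligand of sprouting vessels (-1.90 ± 0.44, adjusted p = 0.032). Among all tested genes 5.05% rose and 4.91% fell. None of 34 oxidative phosphorylation genes and none of 22 cholesterol synthesis genes passed in either direction, with medians of 0.16 and 0.03.

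Most of the 15 largest decreases were genes on none of the lists. COL24A1, a fibrillar collagen of forming bone and eye, stood at 31.4, 32.4, 22.4 and 25.2 CPM early, 9.07 and 12.6 CPM at day 100 and 2.11, 1.39, 0.762 and 0.589 CPM late (-4.53 ± 0.43, adjusted p = 0.0052). VAT1L stood at 25.1, 31.4, 12.1 and 13.2 CPM early and 1.24, 0.815, 0.544 and 0.332 CPM late (-4.81 ± 0.53, adjusted p = 0.0055). For both, birth lay below day 120 in every library. FBN3, a fibrillin of fetal tissue, had the largest decrease of the ranked genes, -5.01 ± 0.86 (adjusted p = 0.014), with 22.3, 41.5, 101 and 11.7 CPM early and 0.754, 3.20, 0.798 and 0.710 CPM late. WFIKKN2, an inhibitor of myostatin, went from between 23.3 and 60.6 CPM to between 0.513 and 5.84 CPM (-4.15 ± 0.75, adjusted p = 0.017), and AGTR2, the angiotensin receptor of fetal mesenchyme, from between 21.9 and 30.1 CPM to between 0.332 and 4.76 CPM (-3.52 ± 0.68, adjusted p = 0.020). PRSS35, a serine protease-like protein, stood at 86.7, 132, 78.3 and 114 CPM early, 34.9 and 41.6 CPM at day 100 and 17.6, 10.9, 4.50 and 7.50 CPM late (-3.35 ± 0.42, adjusted p = 0.0079).

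Some of these genes were highest in the libraries with other tissue. THBS4, CAMK2B, DUSP27 and FBN3 were highest in day 80 replicate 1, the library with muscle genes, at 1056, 30.4, 144 and 101 CPM against 491, 4.72, 27.5 and 11.7 CPM in its partner (log2 fold changes of -3.39 ± 0.69, -3.37 ± 0.80, -3.38 ± 0.87 and -5.01 ± 0.86). STAB2, a scavenger receptor of sinusoidal endothelium such as that of liver, was highest in day 65 replicate 2, the library with liver genes, at 28.6 CPM against 12.1 CPM in its partner (-4.12 ± 0.79, adjusted p = 0.020). The part of the other tissues in these 5 results was not tested. SCEL, SEPT3 and UPK2 completed the set, with values of -3.55 ± 0.80, -3.28 ± 0.48 and -3.26 ± 0.56 (adjusted p = 0.031, 0.010 and 0.014).

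**Figure D3:**
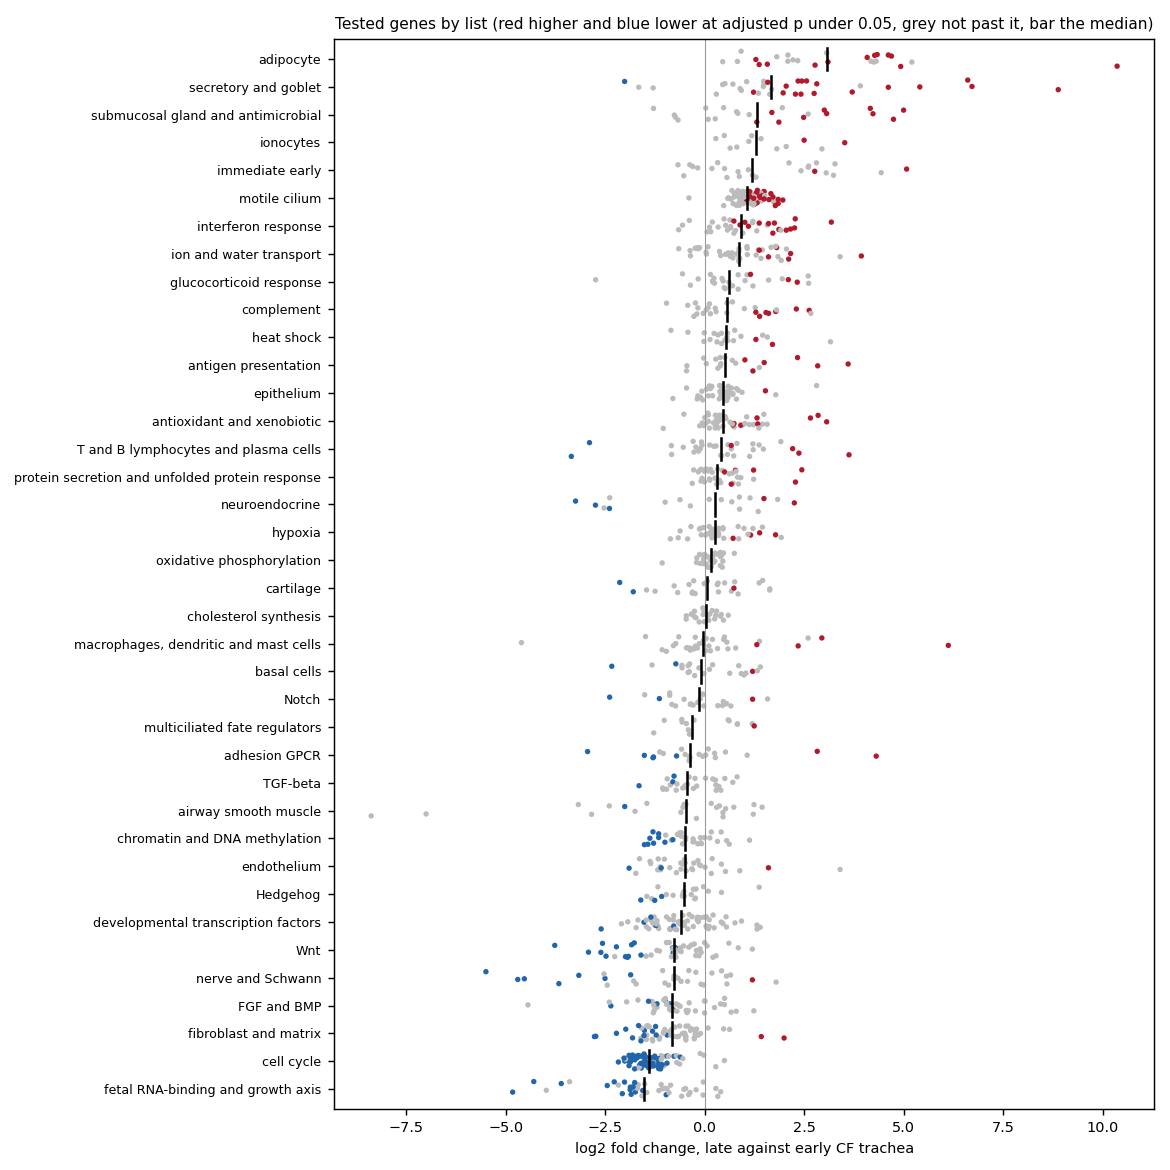
Each point is a tested gene of a list, placed by its log2 fold change in late against early CF trachea, red where it rose, blue where it fell and grey where it did not pass, with a black bar at the list's median. Fat cell genes (median 3.06) and secretory genes (1.65) lie at the top and cell division (-1.41) and fetal growth genes (-1.53) at the bottom.

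Day 100 lay between the sides for most of the genes that passed, nearer to the late side for those that rose. Of the 922 that rose 791 had a mean day 100 level between the early and late means, as did 880 of the 896 that fell, against 47.6% of all tested genes. Genes that passed were chosen for a clear gap between those means, so a share above that of all genes follows in part from the choice. The median position was 66.8% of the way to the late mean for genes that rose and 41.6% for genes that fell. The step from day 80 to day 100 was the largest for 644 genes that rose (69.8%) and for 354 that fell (39.5%), against 50.6% of all tested genes. Between days 120 and 147 lay the largest step of 291 genes that fell (32.5%) and of 67 that rose (7.27%), against 15.7% of all tested genes.

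**Figure D4:**
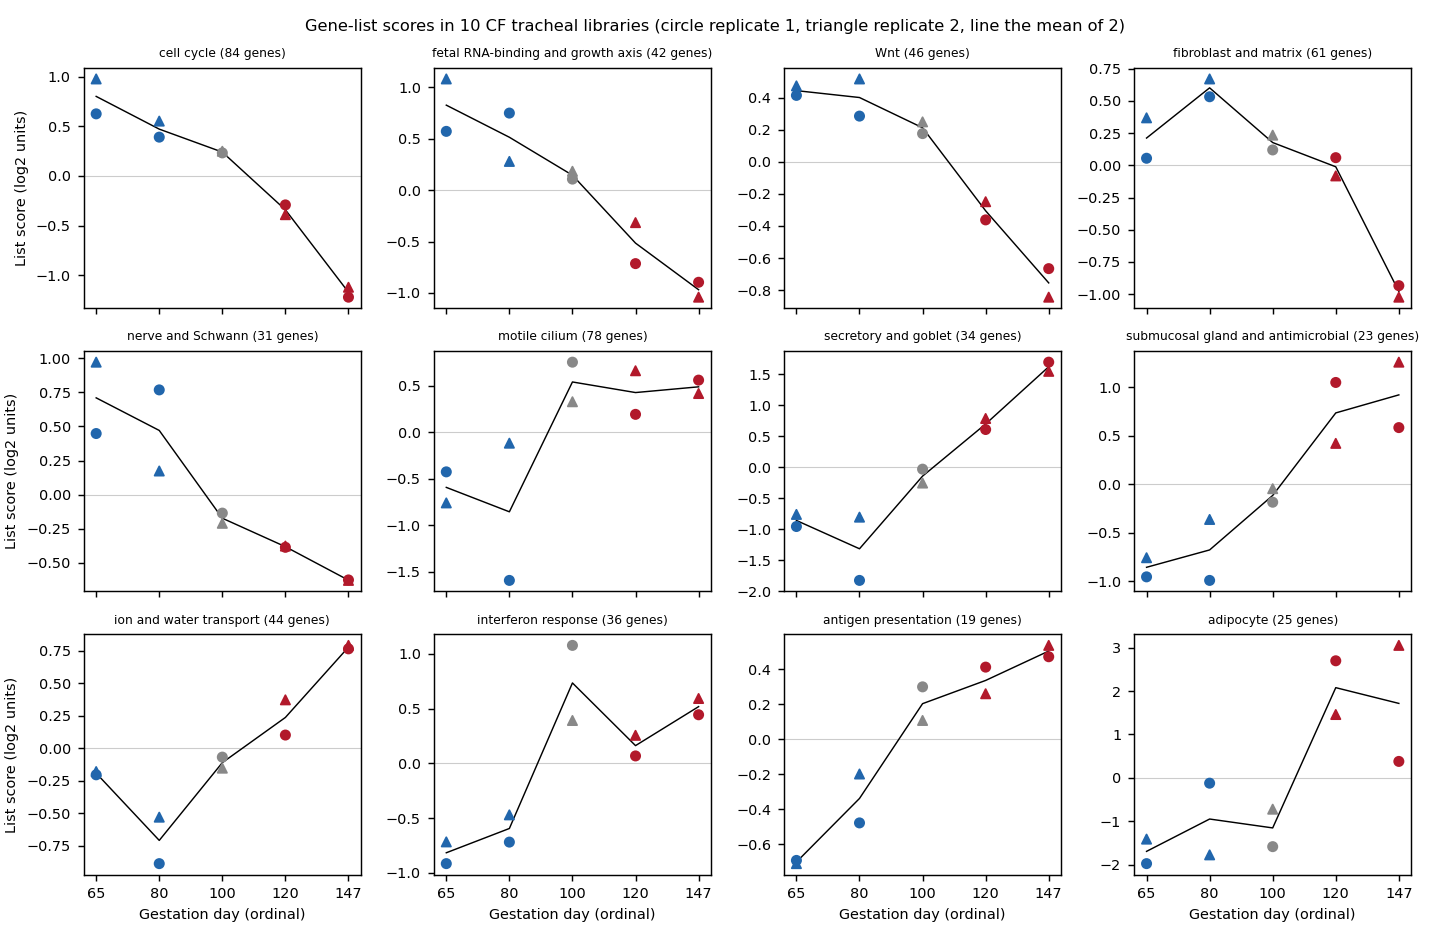
Scores of 12 lists in the 10 CF libraries against gestation day, spaced by order, with early libraries blue, day 100 grey and late libraries red, circles for replicate 1, triangles for replicate 2 and a line through the mean of the pair. Cilium and interferon scores are at or above their late level at day 100, fat cell scores stay low until day 120, and cell division scores have their steepest step from day 120 to day 147.

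The change in WT trachea over the same ages ran largely the same way. In a fit of 16 libraries with 19133 genes tested, 1141 genes (5.96%) changed in WT, 561 higher (2.93%) and 580 lower (3.03%), against 1365 (7.13%) in CF, 628 higher (3.28%) and 737 lower (3.85%). Of the 922 genes that rose in CF 887 had a positive log2 fold change in WT and 379 passed there, and of the 896 that fell 881 had a negative one and 398 passed. Over all tested genes 46.4% had a positive value in WT. The difference between the 2 genotypes' changes passed for no gene in edgeR, with 566 (2.96%) at an unadjusted p under 0.05, and for none under the other edgeR fits, whereas DESeq2 called 25.

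**Figure D5:**
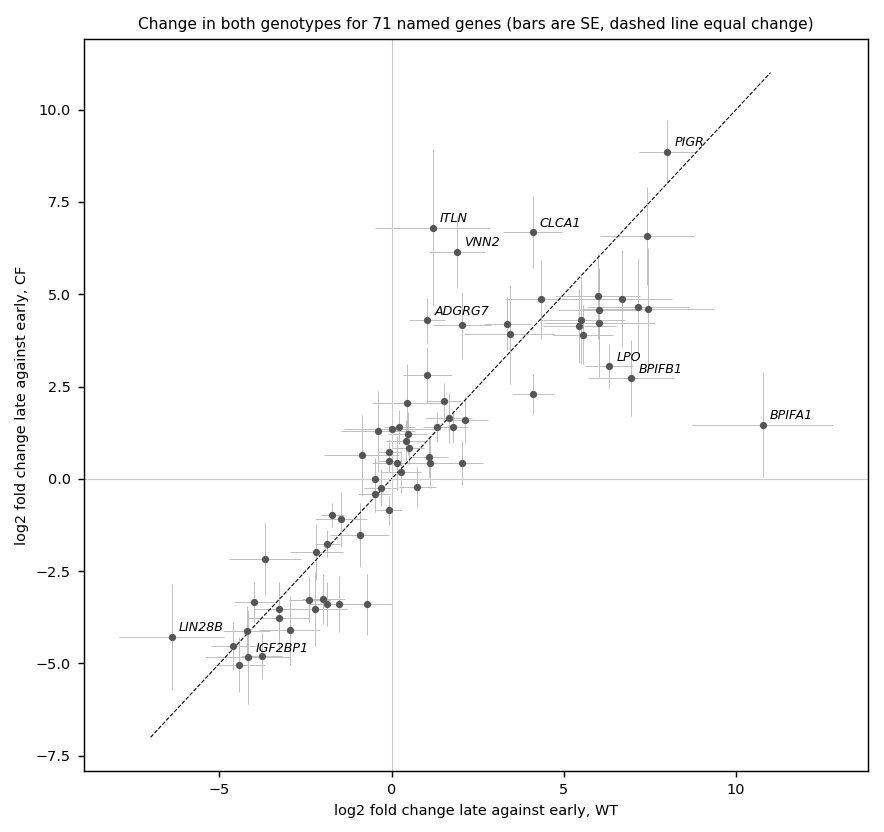
Each point is 1 of 71 named genes, with its log2 fold change late against early in WT on the horizontal axis and in CF on the vertical axis, bars of 1 SE and a dashed line of equal change. Most points lie along the line, PIGR near its upper end, and BPIFA1, LPO and BPIFB1 lie below it while VNN2, ADGRG7 and ITLN lie above it.

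Some named genes with an unadjusted p under 0.05 are given as values, chosen after these were seen. BPIFA1 stood in the late WT libraries at 0.587, 5.14, 155 and 1308 CPM, against 0.968, 1.43, 3.18 and 2.47 CPM in CF, with 0.280, 0.120, 0.363 and 0.0787 CPM early in WT and 0.0995, 0.418, 0.901 and 1.52 CPM early in CF. Its log2 fold change was 10.77 ± 2.04 in WT and 1.47 ± 1.42 in CF, and both birth libraries of WT were above every CF library (unadjusted p = 0.00097, edgeR adjusted p = 0.999 for this and each gene below). LPO stood early at 229, 175, 103 and 550 CPM in CF and 19.9, 12.5, 54.3 and 10.4 CPM in WT, and late at 1858, 1860.2, 2617 and 2453 CPM in CF and 1765, 948, 2778 and 2223 CPM in WT. Its early CF libraries were all above its early WT ones while the late libraries overlapped. The change was 3.05 ± 0.60 in CF and 6.31 ± 0.70 in WT (unadjusted p = 0.0011). ADGRG7 stood early at 0.810, 0.692, 1.59 and 1.62 CPM in CF and 26.2, 18.1, 6.25 and 4.29 CPM in WT, and late at 12.8, 33.9, 28.3 and 17.1 CPM and 41, 16.9, 32 and 21.5 CPM (unadjusted p = 0.00067).

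VNN2 stood late at 61.3, 88.1, 237 and 213 CPM in CF and 22.1, 23, 28.2 and 11.7 CPM in WT, and early at 2.53, 1.48, 2.08 and 2.34 CPM and 0.497, 2.20, 1.71 and 18.4 CPM (unadjusted p = 0.0022). ITLN changed by 6.8 ± 2.14 in CF and 1.19 ± 1.68 in WT (unadjusted p = 0.041). In WT it was uneven, at 1.81 and 1.16 CPM at day 65 and 772 and 3.34 CPM at day 80. Late WT libraries held 835 and 905 CPM at day 120 and 15.4 and 22.0 CPM at day 147, so the WT value rests largely on day 80 replicate 1. BPIFB1 changed by 2.73 ± 1.03 in CF and 6.96 ± 1.25 in WT (unadjusted p = 0.0096). Some genes that fell in CF had values near 0 in WT. GRP changed by -3.23 ± 0.69 in CF and -0.16 ± 0.62 in WT (unadjusted p = 0.0042), and RIMS1 by -2.01 ± 0.48 and -0.09 ± 0.46 (unadjusted p = 0.01). For DUSP27, highest in the CF library with muscle genes, the values were -3.40 ± 0.82 and -0.73 ± 0.75 (unadjusted p = 0.025). FOSB changed by 5.05 ± 1.31 in CF and 0.69 ± 1.12 in WT (unadjusted p = 0.018). PIGR changed by 8.86 ± 0.85 in CF and 8.0 ± 0.82 in WT, and CFTR by 1.41 ± 0.46 and 0.22 ± 0.45, differences that did not pass. Of the 25 genes that DESeq2 called for this difference BPIFA1, LPO and ADGRG7 were 3, and T cell genes such as CD3D, CD4, CD8A and CD28 were among the others. So was CD1E, a gene of the dendritic and the thymus lists. CD3D, named after its values were seen, stood at 0.102, 32.7, 0.291 and 30.8 CPM in the early WT libraries and 0.0569, 0.129, 0.185 and 0.234 CPM in the early CF libraries. The 2 high WT libraries are day 65 replicate 2 and day 80 replicate 2, and PRSS16, the thymus protease, stood in the same libraries at 125 and 77.6 CPM against at most 0.545 CPM in the other WT libraries. Day 80 replicate 2 also held thyroid genes summing to 111560 CPM. The part of thymus and thyroid tissue in the DESeq2 calls was not tested.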

How the data were processed

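The authors deposited raw read counts per gene in a table for each genotype. Per the submitters' processing notes, STAR 2.6, Subread and featureCounts 1.6.3 were used. The sources used here do not give the genome build, the annotation, the strand setting or the treatment of multiply matching reads. The CF table held 24478 genes, 8432 of them named by locus number. RefSeq's table for ARS-UI_Ramb_v3.0, from which names alone were taken, supplied symbols for 501. No sequence is printed, since no sequence table of the organism was used here.

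From the deposited counts the 4 late and 4 early CF libraries were compared with edgeR 4.0.16 (R 4.3.3): filterByExpr, TMM scaling, robust quasi-likelihood fit and F-test, with Benjamini-Hochberg adjustment over all 18243 genes tested and a threshold of 0.05 on the adjusted p, two-sided. The SE of a log2 fold change is its size divided by the square root of F. CPM values are TMM-scaled over the 10 CF libraries, or over all 20 libraries where CF and WT are set side by side, so the same CF library can differ slightly between the scales. List scores use log2 CPM with a prior count of 2. The difference between CF and WT is the interaction term of a fit of 16 libraries. No molecular identifiers are stated, so precision covers counting error and the spread between libraries, including that between the 2 ages of a side.

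Named genes are 43 tested key genes, the 15 largest changes per direction among genes that passed, had a symbol, a mean log2 CPM of at least 1 and no overlap, and up to 4 members per list and direction of lowest p. A few genes that meet this rule are not reported here. The members and the 46 lists were chosen with earlier results of these data known, so their directions are no independent evidence. On simulated counts with 200 changed genes among the 18042 tested, the procedure called 20.9%, 76.1% and 100% of genes changed 2-fold, 4-fold and 16-fold and 10 unchanged genes. The alternatives were DESeq2 1.42.0, limma-voom 3.58.1, library size without TMM, no filter, each library left out, the replicate number as a block, libraries of a shared identifier or stem summed, the libraries with other tissue left out, 1 coefficient per age, day 147 against day 65 and a test against a 1.5-fold change.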

Additional observations from a re-analysis of the deposited data

Results flagged for a closer look

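Within the 4 early or the 4 late libraries, 27 of 470 groups of values had a sample far from the other 3 (Dixon's test at 95%), where chance gives about 1 in 20. Among the early libraries, day 80 replicate 1 stood apart most often. It was high for CAMK2B (30.4 CPM against 3.25 to 4.72 CPM in the other 3), ADGRB1 (13.7 against 2.53 to 3.37 CPM) and the skeletal muscle list (score 7.56 against -1.39 to -0.498). The same library was low for DNAH5 (26.6 against 91.5 to 108 CPM), CREB3L4 (1.19 against 3.46 to 3.82 CPM), MEIS1 (50.7 against 71.1 to 75.6 CPM), ADGRB2 (18.5 against 32.7 to 35.2 CPM) and the regulators of multiciliated fate (score -1.21 against 0.0302 to 0.279).

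Day 65 replicate 2 was high for the liver list (score 5.47 against -1.03 to -0.87) and the red cell list (5.01 against -0.495 to -0.227), and it alone of the early libraries held counts of CD207 (0.0333 CPM) and UCP1 (0.117 CPM). Day 80 replicate 2 was high for ELN (1720 against 821 to 859 CPM), S100A9 (14.8 against 7.33 to 7.48 CPM) and PRSS16, a thymus protease (1.16 against 0.32 to 0.367 CPM). Day 65 replicate 1 was low for AGTR2 (21.9 against 28.6 to 30.1 CPM).

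Among the late libraries, day 120 replicate 1 was high for PFKP, a glycolytic kinase (79.2 against 61.1 to 63.2 CPM), and low for AK4, a mitochondrial kinase (36.2 against 57.8 to 59.4 CPM), SCNN1G (5.09 against 7.08 to 7.29 CPM) and CR2 (0.452 against 1.03 to 1.09 CPM). Day 120 replicate 2 was high for FBN3 (3.2 against 0.71 to 0.798 CPM) and low for CFB (76.3 against 117 to 118 CPM) and CD2 (0.717 against 1.63 to 1.83 CPM). Day 147 replicate 1 was low for LPL (14.9 against 84.7 to 115 CPM), LTF (87.3 against 126 to 134 CPM), FLT4 (7.93 against 12.6 to 13.3 CPM) and the list of macrophages, dendritic and mast cells (score -0.0658 against 0.17 to 0.218).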

How the results depend on the processing

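All 1818 genes kept their sign under every alternative that tested them, which their choice from the same libraries made nearly certain. The number past the threshold moved. DESeq2 called 3723, a fit with 1 coefficient per age 3382 and a test against a 1.5-fold change 437. The replicate number as a block gave 914, although the numbers did not pair the libraries (correlations of deviations between ages of -0.75 to 0.14). Summing the day 147 pair gave 522, and summing libraries of a shared identifier stem gave 0 (3343 at an unadjusted p under 0.05). Leaving out the 2 libraries with other tissue gave 113, and leaving out day 120 replicate 2 as well, chosen after seeing the data, gave 2 (3277 unadjusted). Leaving out 1 library gave 360 to 2442 genes, the lowest without day 147 replicate 2 and the highest without day 120 replicate 1. Library size without TMM scaling called 1567, 38.0% of them higher against 50.7%, with a shift of the median of all genes to -0.11. The difference between CF and WT was called for 25 genes by DESeq2 and for 0 by each edgeR fit, which had 226 to 1465 at an unadjusted p under 0.05. Of the 162 named genes that passed, 60 did so in all 8 fits that left out 1 library, 83 with the day 147 pair summed and 29 without the 2 libraries with other tissue. Some named genes that did not pass did so under alternatives. MKI67 and COL2A1 passed in 4 of these fits each, CFTR, DNAH5 and MUC5B in 3 each and SCNN1A in 2. DLK1, FOXI1, KRT5 and TP63 passed in 1 each.

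Changes of sign were limited to 6 named genes, none of which passed, and their cause was not tested. LYZ (0.02) became -0.0033 with limma-voom, -0.10 with library size alone, -0.13 with the pair or the stems summed, -0.37 and -0.30 without the 2 and the 3 libraries with other tissue and -0.041 with 1 coefficient per age, and ran from -0.29 to 0.29 with 1 library left out. ACTA2 and HSD11B1 were 0.53 and -0.012 at day 147 against day 65. With 1 library left out ACTA2 ran from -0.49 to 0.27, SHH from -0.52 to 0.11, FKBP5 from -0.049 to 0.42 and GPX3 from -0.42 to 0.77.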
